A study of Homo sapiens with 4 samples.

Results

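Transcription factors that specify and maintain luminal cells of the mammary epithelium were followed in T47D, a human breast cancer cell line of luminal origin that expresses the progesterone receptor (PR). The group was defined by gene symbol and holds 10 genes of the 23287 in the RNA-seq files, namely *FOXA1*, *GATA3*, *TFAP2A*, *TFAP2B*, *TFAP2C*, *SPDEF*, *GRHL2*, *ELF3*, *ELF5* and *MYB*. mRNA was sequenced from cells treated for 3 h with 10 nM R5020, a synthetic progestin, and from cells treated for 3 h with its vehicle, ethanol (EtOH). PR-bound DNA was sequenced by ChIP-seq from cells treated for 1 h with 10 nM R5020. All cells were kept in serum stripped of steroids with charcoal before treatment, for a shorter time for RNA than for ChIP-seq, and no gene was altered in them. There was 1 library per condition and 1 ChIP-seq library, so no sequencing value below has a replicate among these libraries, no test between conditions was possible and each difference compares a pair of libraries. In bulk RNA, a lower level in every cell and a lower share of cells with the transcript cannot be told apart.

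PR is a ligand-activated transcription factor. After binding progestin it associates with DNA, often at the palindromic hormone response element that it shares with the glucocorticoid and androgen receptors, and genes near its binding sites can be raised or lowered. FOXA1 and GATA3 are pioneer factors, which can bind sites in closed chromatin and open them for other factors, and in luminal breast cells both work with the estrogen receptor. The AP-2 proteins (*TFAP2A*, *TFAP2B*, *TFAP2C*) bind GC-rich palindromes in epithelial enhancers. SPDEF, ELF3 and ELF5 are ETS factors restricted to epithelia, and ELF5 is known for driving the alveolar, milk-producing fate. GRHL2, of the grainyhead family, sustains genes of cell junctions, and MYB is a proto-oncogene expressed in luminal breast cancers.

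The luminal label was checked with marker genes. Keratin 19 (*KRT19*), *EPCAM*, *MUC1* and *CDH1* were each at an FPKM (a fragment number scaled by transcript length and library size) between 55.6 and 608 in both libraries. *KRT8* and *KRT18* were listed at 0 in EtOH because their estimation had failed there, and stood at 285 and 174 in R5020. For this reason the sum of the 6 luminal markers, 1323 in EtOH and 1611 in R5020, is not comparable between the libraries. The 6 basal or mesenchymal markers summed to 7.47 in EtOH and 5.48 in R5020, with *KRT5*, *KRT14*, *KRT17* and *VIM* below 1 in both. Most of that sum came from *COL1A1*, at 5.12 in EtOH and 3.31 in R5020, and *ACTA2*, at 1.93 and 1.35. The 4 markers of blood and endothelium summed to 0.258 and 0.344, with *HBB* at 0. The coverage of the annotated transcripts corresponded to 35151493 reads of 50 nt in EtOH and 36203604 in R5020.

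Progestin treatment was accompanied by lower levels of most of the luminal factors and by a higher level of 1 of them. A gene was retained if its FPKM, summed over its transcripts, was at least 1 in at least 1 library, which held for 11018 genes and for 9 of the 10 luminal factors. Differences are log2((FPKM in R5020 + 1) / (FPKM in EtOH + 1)), which understates the change of low genes, and a gene was called at 1.5-fold. Of the 9 retained factors, 5 fell (*FOXA1*, *ELF3*, *GATA3*, *TFAP2A*, *SPDEF*), where 4.14% of all retained genes fell. With an FPKM of 1 required in both libraries, *ELF3* was no longer retained and 4 fell, compared with 2.92% of the genes kept by that filter. *GRHL2* rose, where 7.67% of all retained genes rose. *ELF5*, *TFAP2C* and *MYB* were under the threshold and *TFAP2B* was not retained. The log2 ratio was below 0 for 8 of the 9 retained factors, compared with 49.1% of all retained genes, and its median was −0.86, compared with 0.01 over all retained genes.

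**Figure D1:**
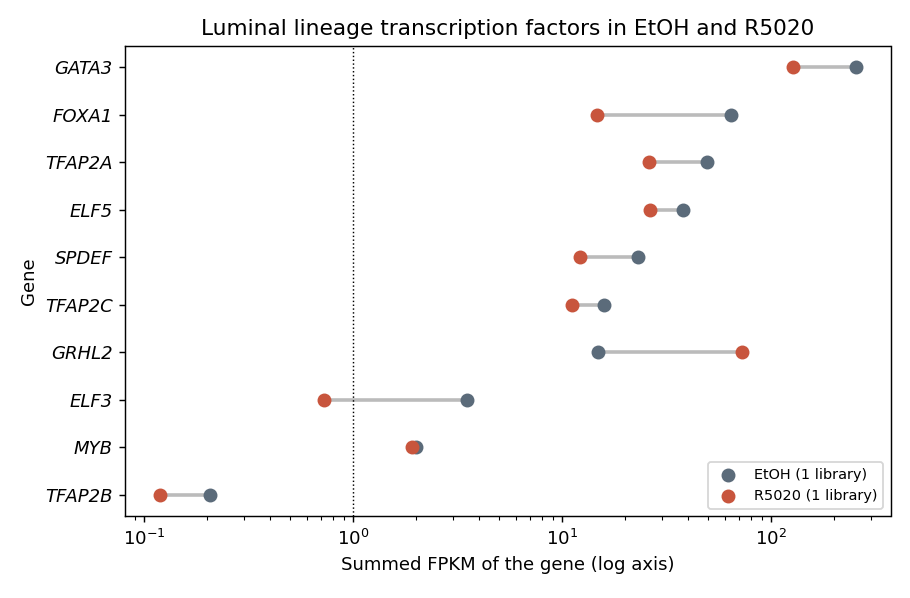
Level of each luminal factor, as FPKM summed over its transcripts on a log axis, in EtOH-treated (grey) and R5020-treated (red) T47D cells, with 1 library each and no error bar. The dotted line marks an FPKM of 1. *GRHL2* is the gene whose R5020 point lies to the right of its EtOH point, and *FOXA1* and *ELF3* have the widest gaps in the other direction.

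The pioneer factors were the most abundant of the group in EtOH-treated cells. *FOXA1* (chr14:38059191-38064489, minus strand, hg19) was at 64.3 FPKM in EtOH and 14.7 in R5020, so that 22.9% of its EtOH level was left after 3 h of progestin. Its log2 ratio of −2.05 was the 64th lowest of the 11018, and its place among all genes ordered by FPKM moved from 325 to 2148. *GATA3* (chr10:8096667-8117164, plus strand) was at 253 in EtOH and 126 in R5020 (log2 ratio −0.998), 49.9% of its EtOH level. *GATA3* nevertheless kept the highest FPKM of the group in both libraries, at place 56 and place 151 of all genes. Since *FOXA1* fell further, the FPKM ratio of *GATA3* to *FOXA1* went from 3.94 in EtOH to 8.57 in R5020. From the midpoints of the FPKM intervals deposited beside these values, the ratios were 5.86 and 12.7.

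Among the AP-2 genes the levels and the differences both varied. *TFAP2A* (chr6:10396916-10419797, minus strand) was at 49.0 FPKM in EtOH and 26.0 in R5020 and fell with a log2 ratio of −0.89. *TFAP2C* (chr20:55204358-55214338, plus strand), an AP-2 gene that maintains luminal identity and the expression of the estrogen receptor, was at 15.9 and 11.1 (log2 ratio −0.48), which did not reach 1.5-fold. *TFAP2B* (chr6:50786439-50815326, plus strand) was at 0.207 and 0.119, below the retention limit in both libraries. *TFAP2A* was thus the most abundant AP-2 gene in both conditions, at 3.09 times the FPKM of *TFAP2C* in EtOH and 2.35 times in R5020. From the interval midpoints these ratios were 2.68 and 1.98.

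The epithelial ETS genes spanned a wide range of levels. *SPDEF* (chr6:34505579-34524110, minus strand), a factor of secretory epithelia, was at 22.9 FPKM in EtOH and 12.2 in R5020 and fell (log2 ratio −0.86). *ELF3* (chr1:201979690-201986315, plus strand) was at 3.52 in EtOH and 0.722 in R5020, with a log2 ratio of −1.39, the 88th lowest of all retained genes. *ELF3* was retained through its EtOH value alone, and a gene below 1 in R5020 that is retained in this way is not one that can be called higher. Its FPKM without the added 1 was 4.87-fold lower. *ELF5* (chr11:34500342-34535347, minus strand) was at 37.9 in EtOH and 26.3 in R5020 (log2 ratio −0.51) and did not pass the threshold. *ELF5* was the most abundant of the 3 ETS factors in both libraries, at 10.8 times the FPKM of *ELF3* in EtOH and 36.4 times in R5020.

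*GRHL2* was the factor of the group that rose. The gene (chr8:102504668-102681952, plus strand) was at 14.8 FPKM in EtOH and 72.3 in R5020, and its log2 ratio of 2.21 was the 69th highest of all retained genes. Its place among all genes went from 1968 to 300, and within the group, ordered by FPKM, it went from place 7 to place 2. *FOXA1* had 4.34 times the FPKM of *GRHL2* in EtOH, while *GRHL2* had 4.91 times the FPKM of *FOXA1* in R5020. From the midpoints of the deposited FPKM intervals these ratios were 2.42 and 8.88. *MYB* (chr6:135502453-135540311, plus strand) was at 1.99 in EtOH and 1.91 in R5020 (log2 ratio −0.04), at place 9027 and place 9087 of all genes.

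**Figure D2:**
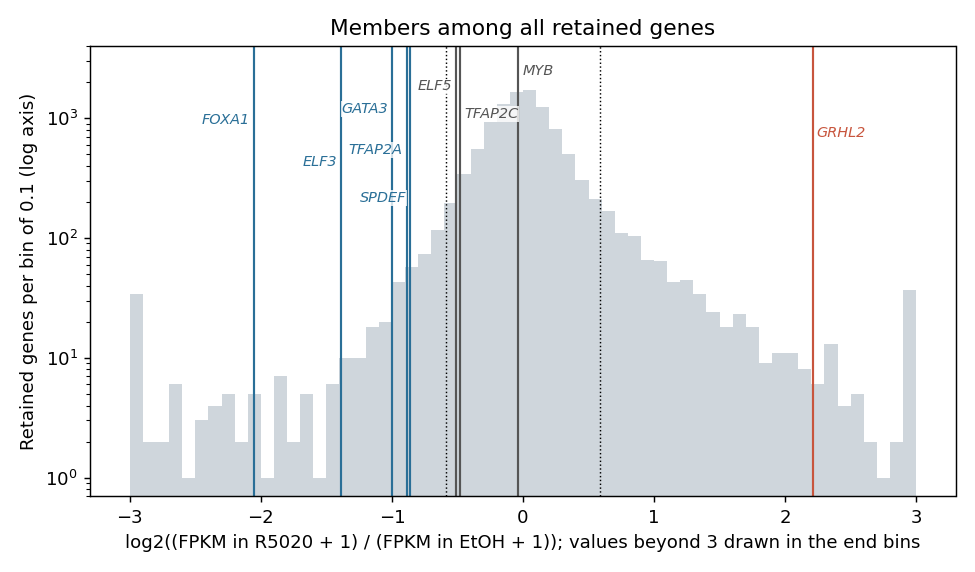
Histogram of log2((FPKM in R5020 + 1) / (FPKM in EtOH + 1)) over the 11018 retained genes, in bins of 0.1 with a log count axis, and with the 9 retained luminal factors drawn as vertical lines. Blue lines fell, the red line rose, grey lines did not pass the dotted 1.5-fold limits. *FOXA1* at −2.05 and *GRHL2* at 2.21 lie in opposite tails.

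The order of the group by FPKM in EtOH was *GATA3*, *FOXA1*, *TFAP2A*, *ELF5*, *SPDEF*, *TFAP2C*, *GRHL2*, *ELF3*, *MYB* and *TFAP2B*. In R5020 it was *GATA3*, *GRHL2*, *ELF5*, *TFAP2A*, *FOXA1*, *SPDEF*, *TFAP2C*, *MYB*, *ELF3* and *TFAP2B*. FPKM is per length, so these levels can be set against each other, but without replicates the spread of neighbours such as *ELF5* and *TFAP2A* in R5020, at 26.3 and 26.0, is unknown. The order also changed in places with the midpoints of the deposited FPKM intervals. In EtOH, *ELF5* (38.1) then stood just above *TFAP2A* (38.0), and *GRHL2* (18.1) above *TFAP2C* (14.2). In R5020, *SPDEF* (12.2) then stood above *FOXA1* (10.0). The depth behind the levels, as coverage times transcript length over 50 nt, ran from 72867 reads for *GATA3* and 19227 for *FOXA1* in EtOH to 203 for *ELF3* and 64 for *TFAP2B* in R5020.

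For 7 of the 10 genes 1 transcript carried all of the signal in both libraries. *GATA3* had a pair of transcripts with the same start, of which 1 went from an FPKM of 128 to 53.5 (log2 ratio −1.24) and the other from 125 to 72.8 (−0.78). They differ by 3 bases in length (3070 and 3067 bases), so the division of reads between them is an estimate. *TFAP2A* was expressed from 1 of its 3 annotated transcripts and *ELF5* from 1 of 4, each with its own value equal to the gene sum, and the others were listed at 0 in both libraries. *ELF3* had a minor transcript at 0 in EtOH and 0.0998 in R5020. *MYB* had 4 of 8 transcripts above 0. Its main transcript was at 1.62 in EtOH and 1.34 in R5020, a longer one was at 0.364 in EtOH and 0 in R5020, and 2 others were at 0 in EtOH and at 0.327 and 0.249 in R5020.

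All transcripts of the 10 genes had a successful estimate in both libraries. For *FOXA1*, *TFAP2A*, *TFAP2C* and *GRHL2* the deposited FPKM nevertheless lay outside the confidence interval deposited beside it. For *FOXA1* that interval ran from 42.1 to 45.3 in EtOH and from 9.27 to 10.8 in R5020, below the FPKM in both. For *GRHL2* it ran from 17.4 to 18.8 in EtOH and from 87.4 to 90.6 in R5020, above the FPKM in both. With the midpoints of the intervals in place of the FPKM, *FOXA1* was at 43.7 and 10.0, *TFAP2A* at 38.0 and 19.5, *TFAP2C* at 14.2 and 9.86, and *GRHL2* at 18.1 and 89.0. The absolute levels of these 4 genes are therefore less certain than their ratios between the libraries, which kept their direction and their side of 1.5-fold.

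Other genes of the same families moved in both directions. Of 30 further FOXA, GATA, AP-2, grainyhead, ETS and MYB genes, 17 were retained, 2 of these rose and 2 fell, and their median log2 ratio was 0.16. Over all retained genes, 7.67% rose and 4.14% fell. The grainyhead genes diverged. *GRHL1* rose from an FPKM of 6.63 to 14.0 (log2 ratio 0.97) like *GRHL2*, and *GRHL3*, which acts in the differentiation of surface epithelia and was retained through its EtOH value alone, fell from 2.13 to 0.222 (−1.36). *GRHL2* was at 2.24 times the FPKM of *GRHL1* in EtOH and at 5.18 times in R5020, or 2.56 and 5.88 times from the interval midpoints. *GATA6*, a factor of endodermal tissues, rose from 2.07 to 4.49 (0.84). *EHF*, an epithelial ETS gene next to *ELF5* on chromosome 11, fell from 32.2 to 16.4 (−0.94).

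Of 22 regulators that work in luminal cells beside these factors, 20 were retained, 4 rose and 5 fell, with a median log2 ratio of −0.25. Over all retained genes, 7.67% rose and 4.14% fell. With the highest transcript of each gene in place of the sum, 3 fell, compared with 4.61% of all genes retained that way. The estrogen receptor gene *ESR1* fell from an FPKM of 17.2 to 10.9 (log2 ratio −0.61), *PGR*, which encodes PR itself, from 23.7 to 15.3 (−0.60), the retinoic acid receptor gene *RARA* from 5.21 to 2.80 (−0.71) and the orphan receptor gene *NR2F1* from 2.37 to 0.730 (−0.96), which was retained through its EtOH value alone. The Notch effector *HES1* fell from 16.9 to 9.05 (−0.83). The genes that rose included *RUNX1*, a partner of CBFB in luminal cells, from 4.25 to 24.99 (2.31). *ZFPM1*, which encodes the GATA cofactor FOG1, rose from 0.998 to 3.88 (1.29) and was retained through its R5020 value alone. *ESRRA* rose from 3.68 to 7.63 (0.88) and *ZNF217* from 18.0 to 29.9 (0.70). *XBP1*, at 93.4 in EtOH and 78.4 in R5020, and *TRPS1*, at 94.1 and 86.1, had levels between those of *GATA3* and *FOXA1* in EtOH and did not pass the threshold.

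Of 17 transcription factors of basal or mesenchymal cells, 13 were below the retention limit in both libraries. The 4 that were retained were *MYC*, *SOX9*, *NFIB* and *FOXC1*, with a median log2 ratio of 0.44, compared with 0.01 over all retained genes. Of these 4, 2 rose, where 7.67% of all retained genes rose. *MYC*, which is also expressed widely in dividing cells, rose from an FPKM of 1.53 to 8.31 (1.88), and *SOX9*, a progenitor factor, rose from 20.9 to 31.9 (0.59), just past the threshold of 0.585 on this scale. *SNAI2*, *TWIST2* and *FOXC2* were listed at 0 in both libraries, and *ZEB1* and *ZEB2* did not exceed 0.0132.

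**Figure D3:**
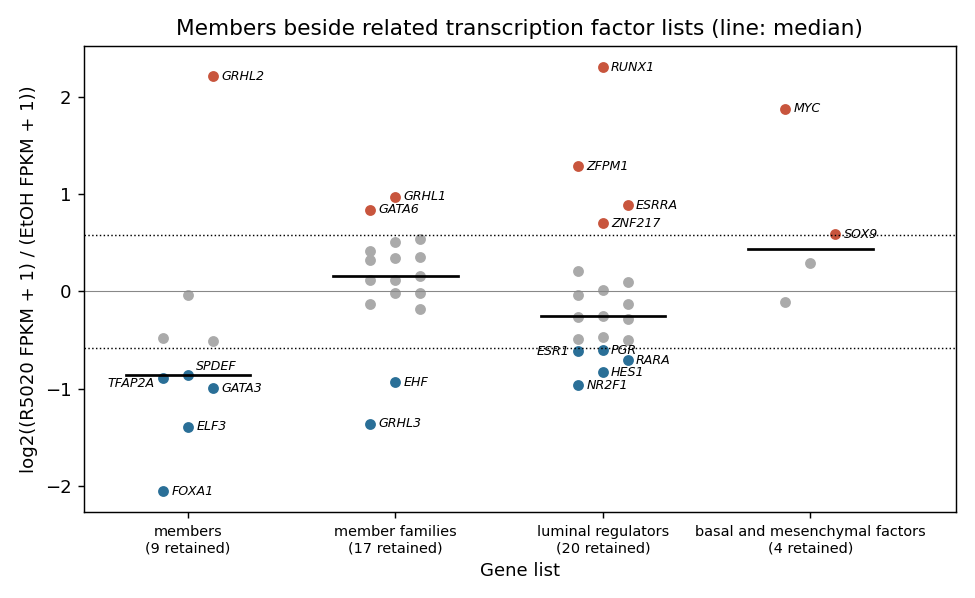
log2((R5020 FPKM + 1) / (EtOH FPKM + 1)) of each retained gene in the luminal factor group and in 3 related lists, 1 point a gene, with a black bar at the list's median and dotted lines at 1.5-fold. Red points rose and blue points fell. The bars lie at −0.86 for the luminal factors and 0.16 for the list of their families, which also holds *TFAP4*. They lie at −0.25 for the luminal regulators and 0.44 for the 4 basal and mesenchymal factors.

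PR binding sites were found near 7 of the 10 genes. A site was assigned to a gene when its edge lay in the gene or within 100 kb of it, and 33 of the 11181 sites met this rule. Of the 9 retained factors, 7 had a site, compared with 64.3% of all retained genes, 70.8% of those that rose and 75.2% of those that fell. The same 7 factors had a site within 50 kb, compared with 52.7% of retained genes, and within 25 kb, compared with 42.1%, and a site within 100 kb that scored no lower than the median site, compared with 49.9%. The number of sites per gene had a median of 3 in the group and of 1 over retained genes. *TFAP2A*, which fell, had its nearest site at 206 kb, and *MYB* and *TFAP2B* had theirs at 708 and 1475 kb. The score of a site is 10 times the negative log10 of its p-value against input DNA. The 33 sites had scores from 50.3 to 671 and a median of 70.8, compared with 74.5 over all sites. Of the 33, 6 reached 100, as did 1824 of all 11181 sites.

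The sequences of 5 of these sites are shown because they hold the recognition letters of PR, FOXA or GATA factors near genes of the group. Each is the central 300 bases of a deposited site, read from the plus strand of GRCh37 (hg19), 5′ to 3′, and lies in no exon of a protein-coding gene. The *FOXA1* site (chr14:38052862-38053161, score 121) lies outside coding genes, 5.89 kb past the end of *FOXA1*. The *GATA3* site (chr10:8179745-8180044, score 69.2) lies outside coding genes, 62.6 kb past the end of *GATA3*. The first *SPDEF* site (chr6:34430318-34430617, score 445) lies 74.8 kb past the end of *SPDEF* and 3.09 kb from *PACSIN1*. The second (chr6:34570457-34570756, score 122) lies 46.2 kb upstream of *SPDEF*, in an intron of *C6orf106* (*ILRUN*). The *ELF5* site (chr11:34556483-34556782, score 84.4) lies outside coding genes, 21.1 kb upstream of *ELF5*. Capitals mark the PR core (ACANNNTGT), the single PR hexamer (TGTTCT, which shares TGT with the core), FOXA letters (TGTTTAC or TATTTAC) and GATA letters (AGATAA or TGATAA), on either strand, so that TATTTAC on the minus strand reads GTAAATA here.
FOXA1 site: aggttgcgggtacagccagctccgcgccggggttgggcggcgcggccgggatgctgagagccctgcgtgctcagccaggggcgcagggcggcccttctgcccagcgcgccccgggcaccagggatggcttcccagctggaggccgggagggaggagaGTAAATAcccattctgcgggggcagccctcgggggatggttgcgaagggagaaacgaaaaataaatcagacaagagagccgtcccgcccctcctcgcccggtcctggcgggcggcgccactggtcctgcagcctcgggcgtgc
GATA3 site: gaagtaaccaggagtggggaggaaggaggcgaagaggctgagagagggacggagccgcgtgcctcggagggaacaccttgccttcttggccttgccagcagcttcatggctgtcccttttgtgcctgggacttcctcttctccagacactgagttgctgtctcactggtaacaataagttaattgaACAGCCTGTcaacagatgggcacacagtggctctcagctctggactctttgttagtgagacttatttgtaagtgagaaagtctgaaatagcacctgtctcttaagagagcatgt
SPDEF site, downstream: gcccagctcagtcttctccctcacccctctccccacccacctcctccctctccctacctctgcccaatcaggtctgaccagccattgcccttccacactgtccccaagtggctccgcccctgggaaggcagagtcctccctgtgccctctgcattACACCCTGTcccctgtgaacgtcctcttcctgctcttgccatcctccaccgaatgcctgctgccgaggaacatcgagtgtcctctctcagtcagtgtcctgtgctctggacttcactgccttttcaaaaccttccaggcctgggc
SPDEF site, upstream: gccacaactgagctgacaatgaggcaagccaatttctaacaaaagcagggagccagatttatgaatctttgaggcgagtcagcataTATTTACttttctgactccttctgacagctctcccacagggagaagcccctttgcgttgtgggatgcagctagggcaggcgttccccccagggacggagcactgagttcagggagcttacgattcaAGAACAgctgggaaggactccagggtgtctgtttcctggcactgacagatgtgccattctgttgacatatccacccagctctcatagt
ELF5 site: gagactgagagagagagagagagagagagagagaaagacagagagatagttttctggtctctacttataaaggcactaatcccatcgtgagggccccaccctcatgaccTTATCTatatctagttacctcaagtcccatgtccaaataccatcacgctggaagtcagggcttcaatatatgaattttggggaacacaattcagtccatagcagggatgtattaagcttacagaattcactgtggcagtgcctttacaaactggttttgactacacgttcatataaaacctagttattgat
The *FOXA1* site is rich in G and C (70.7%) and holds GTAAATA and 3 AP-2 matches. The *GATA3* site and the downstream *SPDEF* site each hold 1 PR core, ACAGCCTGT and ACACCCTGT. The upstream *SPDEF* site holds both TATTTAC and the hexamer as AGAACA, and the *ELF5* site holds the GATA match TTATCT. These matches are letters in a window and not measured binding of a factor.

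The letters were counted in all 33 sites, in all deposited sites and beside them. The PR core was found in 3 of 33 windows of 300 bases (9.09%), compared with 8.20% of all sites and 7.40% of windows 5 kb to either side of the sites. Its share over all sites rose with the score, from 7.11% below a score of 100 to 13.8% of those at 100 or more and 24.6% of the 122 at 300 or more, beside 7.79% of the windows flanking the last. The PR hexamer was in 3 windows (9.09%), compared with 17.7% of all sites and 19.0% of the flanking windows. The FOXA letters were in 5 windows (15.2%), which belong to *FOXA1* (1), *TFAP2C* (1) and *SPDEF* (3), compared with 4.52% of all sites and 6.95% of flanking windows. The GATA letters were in 4 (12.1%), compared with 12.8% of all sites and 22.2% of flanking windows. The AP-2 letters GCCNNNGGC were in 6 (18.2%), compared with 22.0% and 11.0%, and the ETS letters GGAAGT in 9 (27.3%), compared with 17.5% and 15.2%. The MYB letters CAACTG or CAACGG were in 4 (12.1%), compared with 13.4% of both, and the grainyhead letters AACCNGGTT in none, compared with 0.152% and 0.166%.

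The pioneer loci had 8 sites. *FOXA1* had a site across its transcript start (score 70.2) beside the one past its end, and it was the nearest gene to both. *GATA3* had a site across its start (63.2), another 0.487 kb inside the gene (70.8) and one more in an intron 13.6 kb from the start (51.0). Its highest-scoring site, at 99.2, lay 3.99 kb past the end of the gene. The remaining pair lay 48.6 kb upstream, within the gene *TAF3* (58.7), and 83.2 kb downstream of the start (69.2).

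*TFAP2C* carried 3 sites within its first 3 kb, at 0.239, 1.39 and 2.53 kb from the start, with scores of 81.5, 157 and 53.7. Its site at 157 was the 406th highest of all, although the gene did not pass 1.5-fold. *SPDEF* had 8 sites, of which it was the nearest gene to 3. These were a site at its start (50.3), one 1.69 kb inside the gene (66.0) and one 12.4 kb upstream (80.5). The other 5 were nearer to, or inside, *PACSIN1* or *C6orf106*, and the site at 445, the 67th highest of all, was among them. *PACSIN1*, which encodes a protein of endocytosis and lies 1.54 kb from *SPDEF*, rose from an FPKM of 3.28 to 14.0 (log2 ratio 1.81) while *SPDEF* fell. *C6orf106* was at 10.9 and 10.1.

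The 4 *ELF3* sites scored between 61.05 and 93.02, the nearest of them 1.29 kb past the end of the gene (70.8), and 2 of the 4 were nearer to *RNPEP* or *GPR37L1* than to *ELF3*. *ELF5* had 3 sites close together, 21.3, 23.9 and 26.4 kb upstream, with scores of 84.4, 55.4 and 59.2. These also lay within 100 kb of *EHF*, the ETS neighbour that fell, and of *CAT*, which was at 24.9 FPKM in EtOH and 23.0 in R5020.

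*GRHL2*, the factor that rose, had 7 sites, and 1 of them was the highest-scoring site of the group. It scored 671, the 26th highest of 11181, and lay 54.0 kb upstream of the start, with *GRHL2* as the nearest gene. It held none of the PR, FOXA, GATA or AP-2 letters and 1 ETS match in the central 300 of its 793 bases. The other 6 scored between 50.6 and 76.0, with 3 of them inside the gene at 10.1, 28.4 and 111 kb from the start, and the site at 28.4 kb held a PR core. Sites at 100 or more were found at 4 genes, *GRHL2*, *SPDEF*, *TFAP2C* and *FOXA1*, of which 1 rose, 2 fell and 1 was under the threshold. Of all retained genes, 25.7% had such a site within 100 kb. Those of *SPDEF* all had *PACSIN1* or *C6orf106* as the nearest gene. The highest-scoring site with *SPDEF* as the nearest gene was at 80.5.

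**Figure D4:**
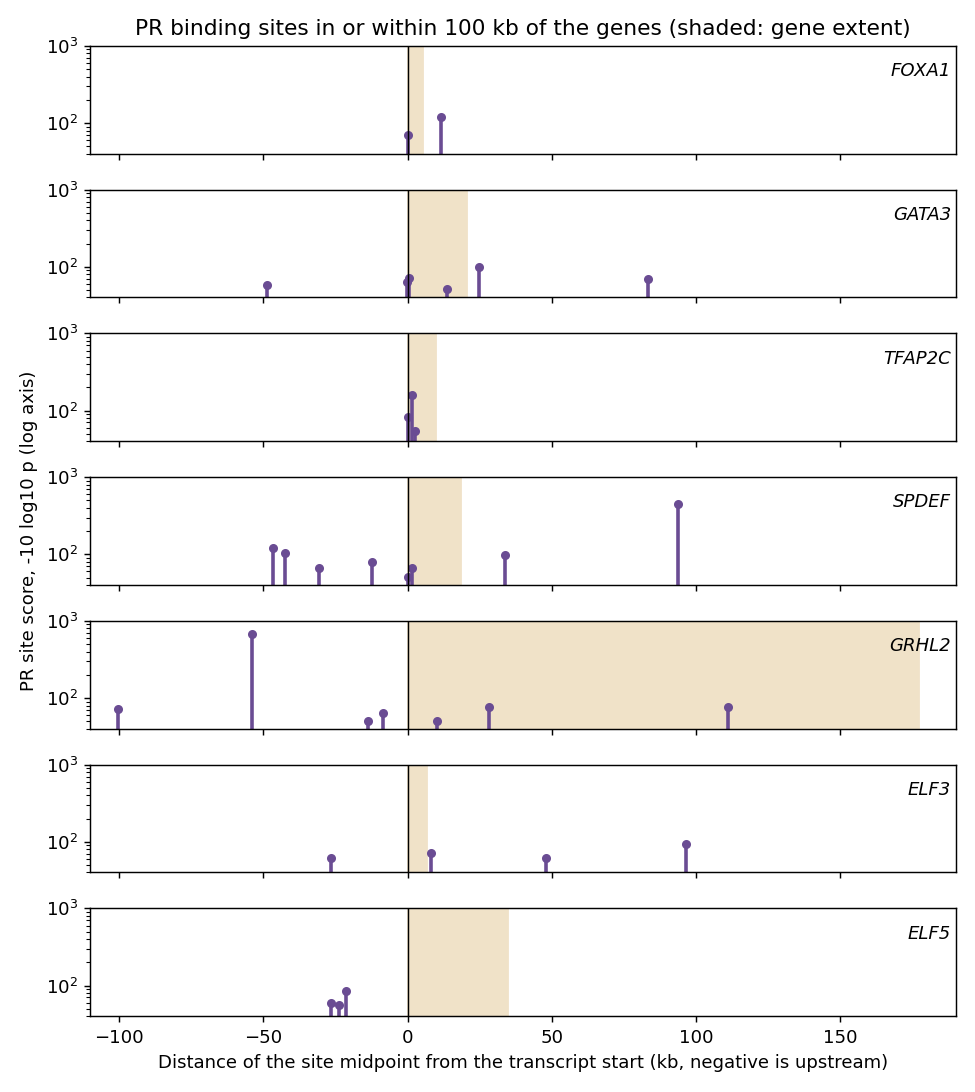
PR binding sites in or within 100 kb of the 7 luminal factor genes that have any, 1 panel a gene. Each stem is a site, placed by the distance of its midpoint from the transcript start in kb (negative is upstream) and by its score on a log axis, and the shaded band is the extent of the gene. Stems above 300 stand only at *GRHL2* (671, 54.0 kb upstream) and *SPDEF* (445, 93.6 kb downstream).

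Across the 33 sites, 12 lay inside or across a gene of the group, 13 upstream and 8 downstream. Of all 33, 3 covered a transcript start, at *FOXA1*, *GATA3* and *SPDEF*, and 10 lay within 10 kb of the start. The gene of the group was the nearest gene for 24 of the 33. No share over all sites is given for these positions, so they do not show whether the sites lay unusually close to the genes. *SPDEF* with 8 sites, *GRHL2* with 7 and *GATA3* with 6 were the 3 factors with 6 or more, as were 12.4% of all retained genes.

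Other genes lay within 100 kb of the same loci. There were 15 of them, 10 were retained, 2 rose and 1 fell, where 7.67% of all retained genes rose and 4.14% fell. Besides *PACSIN1*, *NCALD*, a calcium sensor gene 16.8 kb from *GRHL2*, rose from an FPKM of 0.646 to 3.38 (log2 ratio 1.41), and it was retained through its R5020 value alone. *FLJ45983*, a transcript 1.22 kb from the start of *GATA3* on the other strand, fell from 19.9 to 10.9 (−0.82), beside −0.998 for *GATA3*. The other 7, *MIPOL1*, *TAF3*, *C6orf106*, *RNPEP*, *TIMM17A*, *CAT* and *AHI1*, had log2 ratios between −0.23 and 0.57.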

How the data were processed

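RNA-seq was performed on poly(A)+ RNA of R5020- and EtOH-treated T47D cells, and ChIP-seq on PR-bound DNA, with 1 library each and groups taken from the sample labels. Input DNA was not analysed here, other than through the authors' site calls. Reads were trimmed with Trimmomatic where needed and aligned to hg19 with TopHat, reads with multiple positions were discarded, and the authors deposited Cufflinks FPKM values with an interval and a status for each transcript. The study names an Ensembl annotation in its methods and RefSeq in its results, and the deposited transcripts carry RefSeq identifiers. FPKM is divided by length and library total, so no count test was used. The deposited coverage served to express depth as coverage times length over 50 nt. PR binding sites were called with MACS by the authors after Bowtie alignment, against an equal number of input reads. The deposited score of each site is 10 times the negative log10 of its p-value and is at least 50.

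Transcripts (41138) were joined by identifier and summed to 23287 gene symbols. Genes reaching an FPKM of 1 in either library were retained and 1.5-fold was the threshold, as in the study's methods but without its p-value. The pseudocount of 1 was added here. Site starts were read as 0-based and are given 1-based. Strand and exons came from GENCODE release 44 on GRCh37, and 24 of the 47 chromosome names of the files are in that reference, with every feature inside its lengths. Motifs were counted in 11178 of 11181 sites, those on these chromosomes. The 10 factors and the 3 lists were chosen with earlier results of these data known. Named genes were all 10 factors and every retained list gene past 1.5-fold. *XBP1* and *TRPS1*, for their abundance, the basal and mesenchymal factors that were not called, and the neighbouring genes were named after their values were seen.

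Alternatives were a pseudocount of 0.1 or none, no filter, a filter in both libraries, 2-fold, FPKM rescaled so that the median gene had equal levels, the highest transcript, the interval midpoint, other distances and scores for sites, and the whole site for motifs. Leaving out genes with a transcript whose status was not OK, and splitting sites by score at 100 and 300, were chosen after seeing the data. Scripts were tested on simulated data. Python 3.11.15, pandas 2.3.3, numpy 2.4.6 and matplotlib 3.10.9 were used.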

Additional observations from a re-analysis of the deposited data

How the results depend on the processing

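No direction among the 9 retained factors changed under any alternative run. With a threshold of 2-fold, 2 factors fell (*FOXA1*, *ELF3*) in place of 5, compared with 1.31% of all retained genes. *GATA3* lay just short of 2-fold with the added 1 (log2 ratio −0.998) and just past it with no pseudocount (−1.003). With a pseudocount of 0.1, 4 genes of the list that holds the member families and *TFAP4* rose in place of 2, where 9.91% of all retained genes rose. With the highest transcript 3 luminal regulators fell in place of 5, where 4.61% of retained genes fell. With FPKM rescaled so that the median gene had equal levels, 1 basal or mesenchymal factor rose in place of 2, where 7.55% of retained genes rose. Of the factors, 4 had a PR binding site at a score of 100 or more in place of 7, compared with 25.7% of all retained genes. In whole sites, 5 of the 33 held the PR core and 8 the PR hexamer, in place of 3 each, over longer sequences. Of all whole sites, 11.6% held the PR core and 25.2% the PR hexamer. The log2 ratio of *ELF3* ranged from −2.28 to −1.39, that of *GATA3* from −1.01 to −0.80 and that of *MYB* from −0.17 to −0.04. Over all genes, 845 rose and 456 fell by the settings used above. With a pseudocount of 0.1, 1092 rose and 787 fell, and with none 1068 and 773. When both libraries had to reach 1, 662 rose and 299 fell, and at 2-fold 378 and 144. Without genes that had a transcript of another status than OK, 841 rose and 449 fell.

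No replicate was there to leave out. No paired analysis was possible because each condition has 1 library. The spread between cultures is unknown from these libraries. This includes the differences near 1.5-fold, such as those of *TFAP2C*, with log2 ratios from −0.52 to −0.48, and *ELF5*, from −0.53 to −0.51. The paper reports *FOXA1* lower after progestin also by RT-qPCR, in biological replicates that are outside these libraries. Low genes rest on few reads, with 203 for *ELF3* and 64 for *TFAP2B* in R5020.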
